A study of Sus scrofa with 48 samples.

Results

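The comparison described here set the HF diet, high in both fat and fiber, against the LF diet, low in both, averaged over 2 lines of pigs with the line in the model. It used all 48 arrays of the series, 24 of pigs on the HF diet and 24 of pigs on the LF diet. The strains RFIneg and RFIpl were selected for low and for high residual feed intake (RFI), which is the feed an animal eats above or below what its growth and body maintenance should need. A low RFI pig is the more efficient one. Each diet was given ad libitum to 12 pigs of each line, which made the groups HF_RFIneg, HF_RFIpl, LF_RFIneg and LF_RFIpl. The labels give no age, and fat and fiber changed together between the diets, so that their effects cannot be told apart.

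Gene expression was measured in longissimus muscle, the long muscle of the back, with 1 pig per array on a one-colour microarray of 60-base probes. A level is given here as the log2 of the processed signal minus the mean over the tested probes of the same array, and a difference as HF minus LF in the same log2 units. The tested probes were those with a signal well above background on 12 or more arrays, that is 42125 of 60305 probes and 10747 gene symbols. Levels of different probes are not comparable with each other, because probes bind their targets unequally.

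Muscle takes up glucose and stores it as glycogen, and it burns fatty acids from the diet or from its own droplets of fat. Protein phosphatase 1 switches on glycogen synthase when a targeting subunit brings it to the glycogen particle. Cells also sense cholesterol and polyunsaturated fatty acids through nuclear receptors, which set the transcription of genes for sterol export and for membrane phospholipids.

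The processed signal of the arrays differed little between diets. The median per array ranged from 52.8 to 107.9 on the HF diet and from 55.2 to 81.7 on the LF diet, and its mean log2 value was 6.09 ± 0.23 (SD, n = 24) against 6.07 ± 0.16 (SD, n = 24), with p = 0.684 in a two-sided permutation test. The share of probes well above background was 59.2% to 74.2% per array. The arrays lay on 6 slides of 8, each with 2 pigs of every group, and were scanned on 2 days. Arrays of one group correlated at 0.966 to 0.990, and a principal component analysis set pigs 6 and 10 of HF_RFIpl apart from the rest. The label of skeletal muscle was borne out by its defining genes, since all 11 tested slow fibre genes and all 14 tested fast fibre genes had a probe well above background on all 48 arrays. In tissue samples such as these, fewer cells of a type and less RNA per cell cannot be told apart.

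The sequences of some probes behind the results are shown first, as the scanner files give them, from 5′ to 3′. They were chosen from the genes described below among probes with a reading frame free of stop codons. Where in the transcript each one lies was not determined here. The first 2 are probes of one gene, NR4A3, of which the upper one passed the test and the lower one did not.

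NR4A3, called: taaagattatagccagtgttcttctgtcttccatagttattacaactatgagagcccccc
NR4A3, not called: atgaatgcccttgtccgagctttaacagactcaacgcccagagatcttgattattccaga
PPP1R3C: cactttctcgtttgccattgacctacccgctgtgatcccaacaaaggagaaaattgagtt
LPCAT3: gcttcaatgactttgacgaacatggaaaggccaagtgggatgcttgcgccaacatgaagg
TXNDC16: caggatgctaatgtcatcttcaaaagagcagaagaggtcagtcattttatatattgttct

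The next 2 are both probes of CTSH. The capitals mark the 31 bases that they share, so that they are not independent readings of the gene.

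CTSH, first probe: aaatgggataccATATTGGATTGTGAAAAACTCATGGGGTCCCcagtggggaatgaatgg
CTSH, second probe: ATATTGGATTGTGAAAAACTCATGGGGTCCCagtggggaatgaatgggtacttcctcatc

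The last is a probe of CITED2, in which the capitals mark a stop codon at the end of its only frame that is otherwise open.

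CITED2: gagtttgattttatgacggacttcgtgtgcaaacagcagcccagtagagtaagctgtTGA

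Few probes differed between the diets. With limma's moderated test and Benjamini-Hochberg adjustment over all tested probes, 177 probes, or 0.42% of 42125, had an adjusted p under 0.05. On the HF diet 74 of them were higher, which is 0.176% of the probes tested, and 103 were lower, or 0.245%. The higher probes carried 21 gene symbols and the lower ones 47. Only 24 of the 74 higher probes, or 32.4%, had a gene symbol, against 63 of the 103 lower probes, or 61.2%, and 53.8% of all tested probes. The probes that rose were also the dimmer ones, with a median level of −1.86, against 1.32 for those that fell and −0.44 for all tested probes. The median size of the difference was 0.42 among higher probes and 0.29 among lower probes, beside 0.06 over all tested probes. A size of 1 log2 unit or more was reached by 2 higher and 8 lower probes. The count rested on single pigs, since it was 69 without pig 9 of LF_RFIneg, 82 without pig 1 of HF_RFIpl, 85 without pig 7 of LF_RFIpl, 87 without pig 7 of HF_RFIneg and 93 without pig 7 of HF_RFIpl. It was 275 without pig 12 of HF_RFIpl, 319 without pig 5 of LF_RFIpl and 400 without pig 6 of HF_RFIpl. All 177 probes kept their sign in all 48 fits that left out 1 pig, and 65 were called in each of them.

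Whether more probes rose or fell depended on how the arrays were scaled. With mean centring 41.8% of the calls were higher on the HF diet. After quantile normalization 158 probes were called, or 0.375%, of which 104 were higher and 54 lower, so that 65.8% were higher. The higher and lower calls were 131 and 90 with median centring, 196 and 62 with centring on the 75th percentile, 40 and 33 after another background correction (normexp), and 114 and 51 in the deposited log2 table. No probe changed its own direction under quantile normalization, where 64 of the 74 higher probes and 53 of the 103 lower probes were still called. The adjusted p of those lost was at most 0.137. Of the 177 called probes 68 were still called with normexp background correction, none when no filter on dim probes was set, and 67 with no filter but centring over the usual probes. The 8425 dimmest probes had a median difference of 0.05 with mean centring and of 0.01 after quantile normalization, while the median over all tested probes was 0.002 and 0.007.

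**Figure D1:**
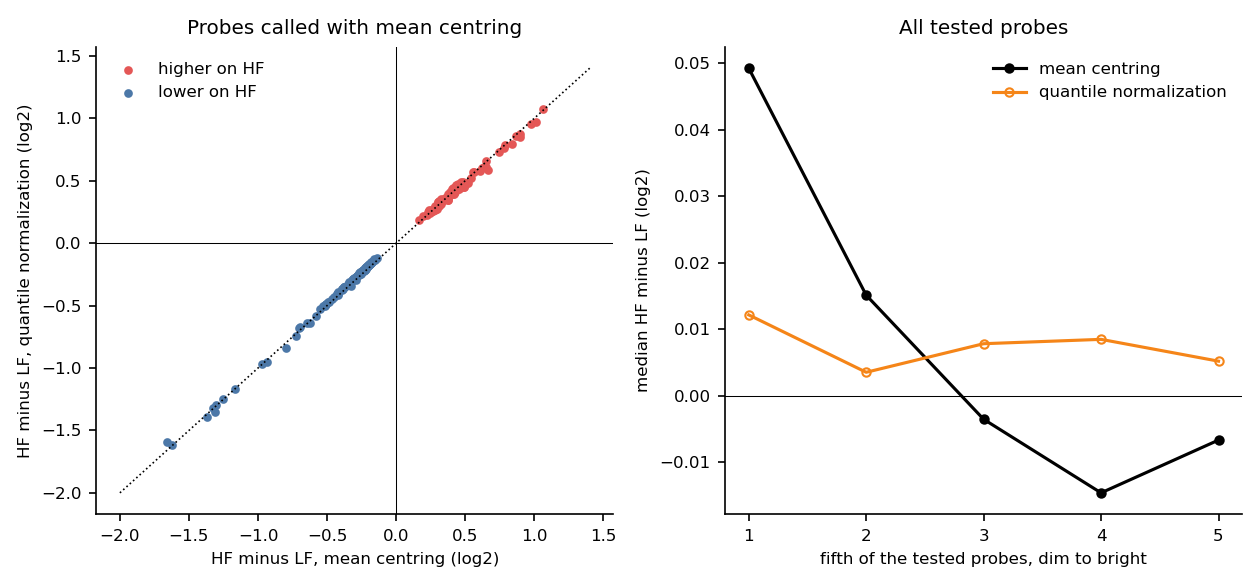
Left, the HF minus LF difference (log2) of each of the 177 called probes with mean centring on the x axis and after quantile normalization on the y axis, with a dotted line of equality. Right, the median difference (log2) of all tested probes in 5 bins by mean level, 8425 probes in each, which spreads from 0.05 in the dimmest bin to −0.01 in the fourth with mean centring and stays between 0.003 and 0.012 after quantile normalization.

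Among called probes with a gene symbol, those of NR4A3 and FOSL1 had the largest differences. NR4A3 encodes an orphan nuclear receptor that muscle switches on within hours of exercise or adrenergic stimulation. Its level on the HF diet was −2.86 at the lowest, −1.28 at the median and 1.20 at the highest, and on the LF diet −1.57, 0.19 and 2.97. The ranges overlapped, although 20 of 24 HF pigs lay below the median of the LF pigs. NR4A3 was lower on the HF diet by 1.30 on the log2 scale (difference −1.30, SE 0.31), or 2.47-fold, with an adjusted p of 0.0384 in limma. All 5 of its probes were lower, from −1.33 to −0.88, and 4 were called, of which 2 are copies of one sequence. The mean over its probes differed by −1.15 and missed the threshold with an adjusted p of 0.0539 in limma. The difference was −2.14 in the low RFI line and −0.47 in the high RFI line, and the test of that contrast between lines gave an unadjusted p of 0.00954 and an adjusted p of 0.999 in limma.

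FOSL1, a subunit of the transcription factor AP-1, was near background, and its probe was well above it in 10 HF pigs and 20 LF pigs. Its level was −6.46, −4.27 and −1.21 (lowest, median and highest) on the HF diet and −5.18, −2.70 and −1.27 on the LF diet. The ranges overlapped in most of their extent, and 21 of 24 HF pigs lay below the LF median. The difference was −1.31 ± 0.32 (SE, n = 24 per diet) with an adjusted p of 0.0424 in limma, and an unnamed probe of the same sequence differed by −1.37. With normexp background correction the FOSL1 difference was −0.38 and not called, and FOSL1 was called in 24 of the 48 fits that left out 1 pig. NR4A3 and FOSL1 belong with the immediate early genes, a class that cells transcribe at once after a stimulus. Over the fixed list of 24 such genes, which held NR4A3 but not FOSL1, 20 were tested with 60 probes. The 4 called probes were all of NR4A3, and the median difference over the list was −0.18, made of −0.36 in the low RFI line and −0.04 in the high RFI line. ATF3, a stress-induced transcription factor, differed by −1.02 with an adjusted p of 0.246 in limma, and IER3 by −0.28 with 0.217. By the mean over their probes, 2 of the 20 genes were above 0.

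PPP1R3C and PPP1R3B, glycogen-targeting subunits of protein phosphatase 1, were lower on the HF diet. A further subunit, PPP1R3A, had a single tested probe, which differed by 0.04. PPP1R3C had a level of 4.45, 5.11 and 5.90 (lowest, median and highest) in HF pigs and of 5.02, 5.65 and 6.43 in LF pigs. In 22 of 24 HF pigs it was below the LF median. The difference of −0.50 ± 0.10 (SE, n = 24 per diet), a 1.42-fold lower level, had an adjusted p of 0.0187 in limma and of 0.0229 after quantile normalization. It was −0.69 in the low RFI line and −0.32 in the high RFI line. Of its 3 probes, 2 were called, and both stayed called whichever pig was left out. The third differed by −0.17. A further 4 called probes without a symbol, from −0.51 to −0.55, were designed on a single liver cDNA clone, and one of them shares 37 bases with the uncalled PPP1R3C probe on the opposite strand.

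PPP1R3B, the subunit best known from liver, lay between −0.81 and 0.70 in HF pigs with a median of −0.17, and between −0.43 and 0.96 in LF pigs with a median of 0.26. The HF pigs were lower in 20 of 24 cases than the LF median. Its single probe differed by −0.42 ± 0.10 (SE, n = 24 per diet) with an adjusted p of 0.0397 in limma, or 0.0499 after quantile normalization, and differed by −0.58 in the low RFI line and −0.26 in the high RFI line. These were the only called members among the 36 genes and 117 probes of the list for glycolysis and glycogen, whose median difference was 0.02. HK1, a hexokinase, differed by −0.21 with an adjusted p of 0.137 in limma, and HK2 by 0.14 with 0.708.

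Among genes of sterol and membrane lipid handling, ABCA1 and LPCAT3 fell. ABCA1 exports cholesterol and phospholipid to apolipoprotein A-I. Its level was 0.38, 1.24 and 3.18 (lowest, median and highest) on the HF diet and 0.82, 1.94 and 3.05 on the LF diet. The highest HF pig exceeded every LF pig, while 20 of 24 HF pigs were below the LF median. ABCA1 differed by −0.69 ± 0.16 (SE, n = 24 per diet), 1.62-fold, with an adjusted p of 0.032 in limma and of 0.0425 after quantile normalization, and by −0.80 and −0.59 in the low and the high RFI line. An unnamed called probe that shares 40 bases with it differed by −0.70.

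LPCAT3 places polyunsaturated fatty acids in membrane phospholipids. It ranged from −1.88 to 0.69 with a median of −0.95 on the HF diet, and from −1.38 to 0.64 with a median of −0.49 on the LF diet. The difference of −0.58 ± 0.14 (SE, n = 24 per diet) had an adjusted p of 0.0494 in limma, just inside the threshold, and of 0.0533 after quantile normalization, outside it. It was called in 18 of the 48 fits that left out 1 pig. ABCA1 was the 1 gene called among the 22 tested for cholesterol synthesis and uptake, of which 5 were above 0 by the mean of their probes and whose 54 probes had a median difference of −0.07. SREBF1, a transcription factor of lipid synthesis, differed by −0.45 with an adjusted p of 0.125 in limma.

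**Figure D2:**
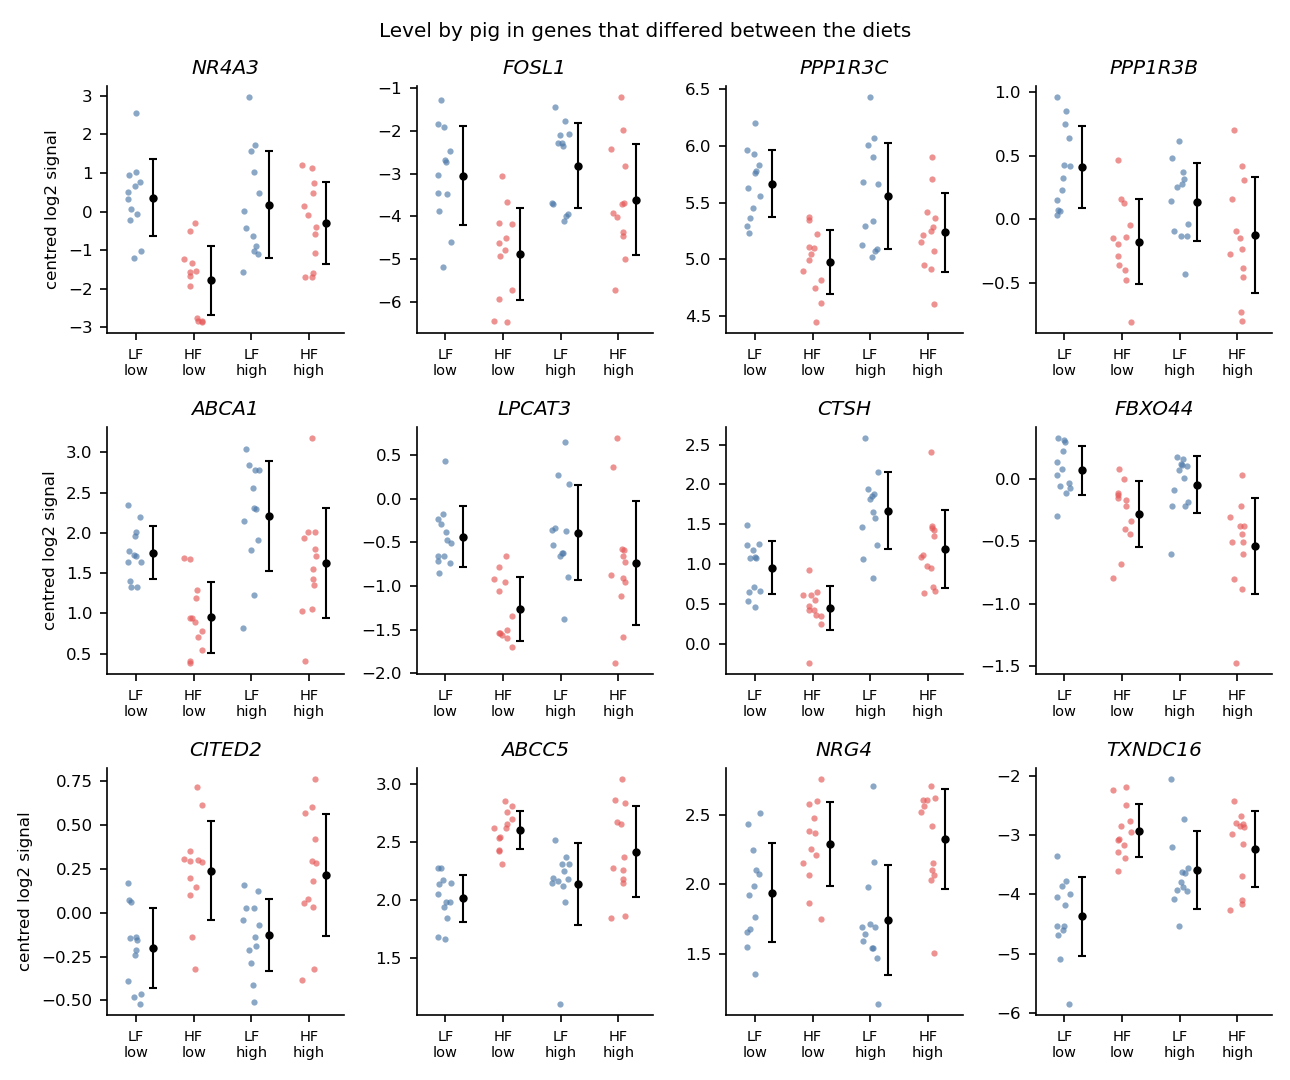
Centred log2 signal (y axis, 1 panel per gene) in each of the 48 pigs, by diet and line (x axis). Each point is 1 pig, and the black marks are the mean ± SD of 12 pigs. NR4A3, FOSL1, PPP1R3C, PPP1R3B, ABCA1, LPCAT3, CTSH and FBXO44 sit lower on the HF diet and CITED2, ABCC5, NRG4 and TXNDC16 higher, with overlapping ranges throughout.

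Other genes that fell act in lysosomes, ubiquitin transfer, purine turnover and the cell cycle. CTSH, a cysteine protease of the lysosome, had a level of −0.23, 0.66 and 2.40 (lowest, median and highest) in HF pigs and of 0.47, 1.24 and 2.58 in LF pigs. It was below the LF median in 19 of 24 HF pigs. The difference was −0.49 ± 0.11 (SE, n = 24 per diet; adjusted p = 0.0349 in limma), almost equal in the low and the high RFI line at −0.50 and −0.48, and all 4 probes lay between −0.49 and −0.46. Of the other lysosomal cathepsins, CTSA had a called probe, which differed by −0.15 to −0.13 in the 48 fits that left out 1 pig. The CTSA probe was called in 23 of these fits. CTSB differed by −0.28 with an adjusted p of 0.126 in limma, and CTSD by −0.17 with 0.11.

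FBXO44, which presents substrates to a ubiquitin ligase, was measured between −1.48 and 0.08 with a median of −0.38 on the HF diet, and between −0.61 and 0.33 with a median of 0.06 on the LF diet. It was below the LF median in 23 of 24 HF pigs. The difference was −0.42 ± 0.08 (SE, n = 24 per diet), with an adjusted p of 0.0176 in limma, and it was somewhat larger in the high RFI line (−0.49) than in the low RFI line (−0.35). The ubiquitin ligase gene MID2 differed by −0.32 ± 0.06 (SE, n = 24 per diet; adjusted p = 0.0176 in limma) and was called with both of its probes. AMPD2, an AMP deaminase, differed by −0.34 with both of its probes, which have one sequence, and PCBD1, which recycles tetrahydrobiopterin, by −0.40 with 3 of 5 probes called. After quantile normalization FBXO44 and both probes of MID2 were still called, as was 1 of the 3 called probes of CTSH and of PCBD1, whereas AMPD2 had an adjusted p of 0.0558 in limma.

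The remaining genes among the 15 with the largest fall were PGF, a growth factor for vessels (−0.63), RPL14 of the large ribosomal subunit (−0.45), ABR, a regulator of small GTPases (−0.39), and TMEM131L (−0.30). The called PGF probe was near background, a probe of the same sequence without a symbol differed by −0.32 with an adjusted p of 0.265 in limma, and the other PGF probe differed by −0.35 and was not called. For RPL14 only 1 of 7 probes was called, and the other 6 lay between −0.20 and −0.09. The list of cytosolic ribosomal proteins had no other called probe among 284. Genes outside these 15 that had several called probes were HSD17B8 of mitochondrial fatty acid synthesis (−0.22, 3 of 4 probes called), the receptor-directed ubiquitin ligase CBL (−0.21, 2 of 3), CCM2 of vessel wall junctions (−0.20, 2 of 2), the cell cycle inhibitor CDKN2D (−0.23, 2 of 2) and the phospholipase PLA2G16 (−0.29, 2 of 2). The 2 called probes share all 60 bases at CBL, 47 at CCM2 and 32 at CDKN2D, so that they are not independent readings. One called HSD17B8 probe has on the array an antisense probe of its exact reverse complement, which differed by −0.09 with an adjusted p of 0.851 in limma. The peroxiredoxin gene PRDX1 differed by −0.26, with an adjusted p of 0.035, and was the 1 called gene of the 33 tested for antioxidant defence. After quantile normalization no probe of HSD17B8, CBL and CDKN2D was called, 1 of 2 probes was called for CCM2 and PLA2G16, and PRDX1, RPL14 and ABR had adjusted p of 0.0507, 0.0586 and 0.0698 in limma.

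The largest fall of any probe, −1.66, was at a probe without a symbol whose description reads neurofilament medium polypeptide-like. Its sequence is that of a NEFM probe, which differed by −1.35 with an adjusted p of 0.0885 in limma. It was well above background in 3 HF pigs and 13 LF pigs, so that most HF values were at the level of background.

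Among the genes that rose on the HF diet none was in a list, since none of the 28 lists had a called higher probe. CITED2, a coregulator that binds CBP/p300 and limits hypoxia signalling, was the gene with most called probes among those that rose, 4 of 6. Of these 4 probes, 2 share 39 bases and are not independent readings. The level of CITED2 was −0.38, 0.29 and 0.76 (lowest, median and highest) on the HF diet and −0.52, −0.15 and 0.17 on the LF diet. The median of the HF pigs was above the highest LF pig, and 21 of 24 HF pigs were above the LF median. The difference was 0.39 ± 0.08 (SE, n = 24 per diet), 1.31-fold, with an adjusted p of 0.0187 in limma and of 0.0175 after quantile normalization, and it was 0.44 and 0.34 in the low and the high RFI line.

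NRG4, a secreted ligand of the receptor ERBB4, ranged from 1.50 to 2.76 with a median of 2.38 on the HF diet, and from 1.14 to 2.71 with a median of 1.70 on the LF diet. It was above the LF median in 23 of 24 HF pigs. The difference was 0.47 ± 0.10 (SE, n = 24 per diet; adjusted p = 0.0278 in limma), with 0.35 in the low and 0.59 in the high RFI line. ABCC5, an exporter of cyclic nucleotides, ranged from 1.85 to 3.04 with a median of 2.58 on the HF diet and from 1.11 to 2.52 with a median of 2.14 on the LF diet. Here too the HF median was above every LF pig. ABCC5 rose by 0.43 ± 0.08 (SE, n = 24 per diet; adjusted p = 0.0176 in limma), and its other 2 probes differed by 0.19 and 0.17 without being called.

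Among called probes with a gene symbol the largest rise was that of TXNDC16, a thioredoxin-domain protein. Its level was −4.26, −2.97 and −2.19 (lowest, median and highest) on the HF diet and −5.84, −3.93 and −2.06 on the LF diet, and the probe was well above background in 23 HF pigs and 13 LF pigs. The difference was 0.90 ± 0.17 (SE, n = 24 per diet; adjusted p = 0.0176 in limma), of 1.44 in the low and 0.35 in the high RFI line, with an unadjusted p of 0.00246 and an adjusted p of 0.999 for the contrast between lines. With normexp background correction the TXNDC16 probe was still called, at a difference of 0.29. GREB1L rose by 0.87 at 1 of 2 probes, and the other probe differed by 0.15. INA, a neurofilament protein, rose by 0.66 at 1 of 3 probes with the others at 0.04 and −0.04, and was well above background in 8 HF pigs and 4 LF pigs. ENTPD7, a nucleoside triphosphatase, rose by 0.65 at 1 of 2 probes, well above background in 10 and 3 pigs. A probe of the same sequence without a symbol differed by 0.55 with an adjusted p of 0.066 in limma and was not called. With normexp background correction INA and ENTPD7 differed by 0.11 and 0.13 and were not called.

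Other genes among the 15 largest rises lay between 0.30 and 0.38. They were C14ORF106, the ubiquitin ligase gene RNF144B, CDKN2AIPNL, the deubiquitinase gene OTUD7B, ATP6V0A4 of the proton pump, BEX1 and BEX2. The called probes of BEX1 and BEX2 have one sequence, so that they do not tell the 2 genes apart. A further BEX1 probe of another sequence differed by 0.04, with an adjusted p of 0.887 in limma, and was not called. At OTUD7B only 1 of 4 probes was called and another differed by −0.15. All 15 genes were still called after quantile normalization, and 9 had an adjusted p under 0.05 when the probes of a gene were averaged. Of the 15 largest falls 11 and 10 did so. In each direction 6 of the 15 genes had a single probe, whose level averaging cannot change, so that these counts are no independent check. With the probes of each gene averaged, 37 of 10747 genes were called, or 0.344%, of which 12 were higher and 25 lower.

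The called differences had the same direction in both lines. All 177 had the same sign in both lines, while this was so for 58.1% of all tested probes. Calls that rest on the mean of both lines favour a shared sign, so the count is a description. The difference was the larger one in the low RFI line in 60 of the 74 higher and 72 of the 103 lower probes, and in 23902 of all 42125 tested probes. Within the low RFI line 84 probes, or 0.199%, were called. Within the high RFI line none was, with 2303 at an unadjusted p under 0.05. The difference between the lines in their response was not called at any probe by limma either, with 1875 at an unadjusted p under 0.05 and a smallest adjusted p of 0.395. It was thus not shown that the lines responded unequally. The count for the low RFI line was 10 without pig 7 of HF_RFIneg, 33 without pig 9 of LF_RFIneg, 47 and 48 without pigs 4 and 12 of LF_RFIneg, and above 126 without pig 2 of HF_RFIneg (137), pig 10 of HF_RFIpl (134) or pigs 1, 3 and 10 of LF_RFIneg (130, 141 and 128).

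The lines share no pigs, so that one can be read in the other. Of the 4902 probes with an unadjusted p under 0.05 in the low RFI line, 73.5% had the same sign in the high RFI line. Of the 2303 such probes in the high RFI line, 77.6% had the same sign in the low RFI line. Under quantile normalization these shares were 72.5% and 75.2%. Beside them, 58.1% of all tested probes had the same sign in both lines, or 58.4% under quantile normalization. Of the 84 probes called in the low RFI line, 68 had the same sign in the high RFI line. Across all 42125 probes the differences in the 2 lines correlated with a Pearson r of 0.30 and a Spearman rho of 0.26, as a description, since probes are not independent and pigs of both lines shared slides.

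**Figure D3:**
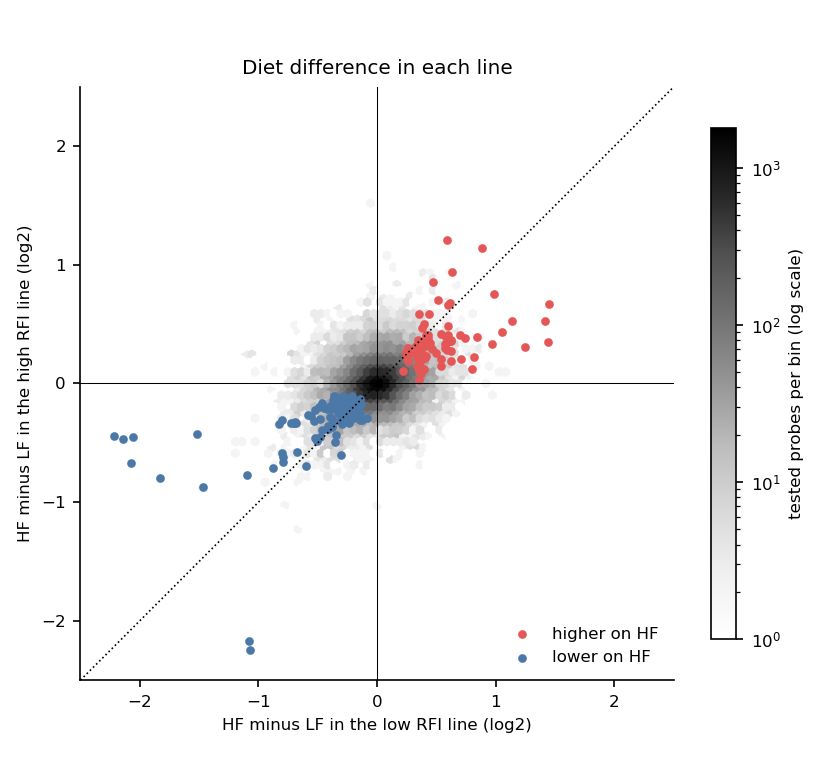
HF minus LF difference (log2) in the low RFI line (x axis) and in the high RFI line (y axis). Grey bins hold all tested probes on a log scale of counts, and points are the 74 higher and 103 lower calls, which fall in the quadrants of shared sign.

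Gene lists were described by their counts and medians. Over all tested probes 5.97% had an unadjusted p under 0.05 and were higher on the HF diet, 7.12% were lower, and the median difference was 0.002. By the median over probes the lists that stood farthest from this were those of macrophage and lymphocyte markers, slow fibre genes, nerve and Schwann cell markers and immediate early genes.

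Slow fibre genes were lower on the HF diet without any called probe. Of 72 probes of 11 genes, 28 had an unadjusted p under 0.05, all of them lower, and the median difference was −0.25 (−0.24 after quantile normalization), with −0.18 in the low and −0.32 in the high RFI line. No gene of the list was above 0 by the mean of its probes. The slow myosin heavy chain MYH7 differed by −0.16 with an adjusted p of 0.22 in limma, and was lower at all of its 10 probes. The slow light chain MYL2 differed by −0.26 (adjusted p = 0.226 in limma) and the slow troponin TNNI1 by −0.35 (adjusted p = 0.264 in limma). The mean level of the list per pig was 4.51, 5.22 and 5.81 (lowest, median and highest) on the HF diet and 4.72, 5.50 and 6.18 on the LF diet, and 5 of 24 HF pigs exceeded the LF median. The list median had the same sign on 5 of 6 slides. Fast fibre genes had a median of 0.01 over 100 probes. The fast myosins MYH2 and MYH4 differed by 0.90 and 0.63 at their best probes, with adjusted p of 0.0506 and 0.112 in limma, and by 0.40 and 0.10 over all their probes.

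Macrophage and lymphocyte markers had 31 of 67 probes with an unadjusted p under 0.05, all lower on the HF diet, and none called. The median difference was −0.33, or −0.32 after quantile normalization and −0.17 with normexp background correction. By the mean over probes 1 of 26 tested genes was above 0, and CD4, CD79A, CD8B and S100A9 had no tested probe. The list is a marker set of cells other than muscle fibres. Its summed level per pig ranged from 3.20 to 5.84 with a median of 3.89 on the HF diet and from 3.50 to 5.07 with a median of 4.15 on the LF diet. The lysosomal membrane glycoprotein GPNMB differed by −1.18 (adjusted p = 0.0748 in limma), lysozyme LYZ by −1.26 (adjusted p = 0.195 in limma) and the signalling adaptor TYROBP by −0.45 (adjusted p = 0.212 in limma). The list median was −0.06 among the pigs scanned on the first day and −0.61 among those scanned on the second, it had the same sign on 5 of 6 slides, and it was −0.39 without pigs 6 and 10 of HF_RFIpl. These markers moved in the same direction as CTSH and ABCA1, both of which macrophages also express, and their part in those results was not tested.

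**Figure D4:**
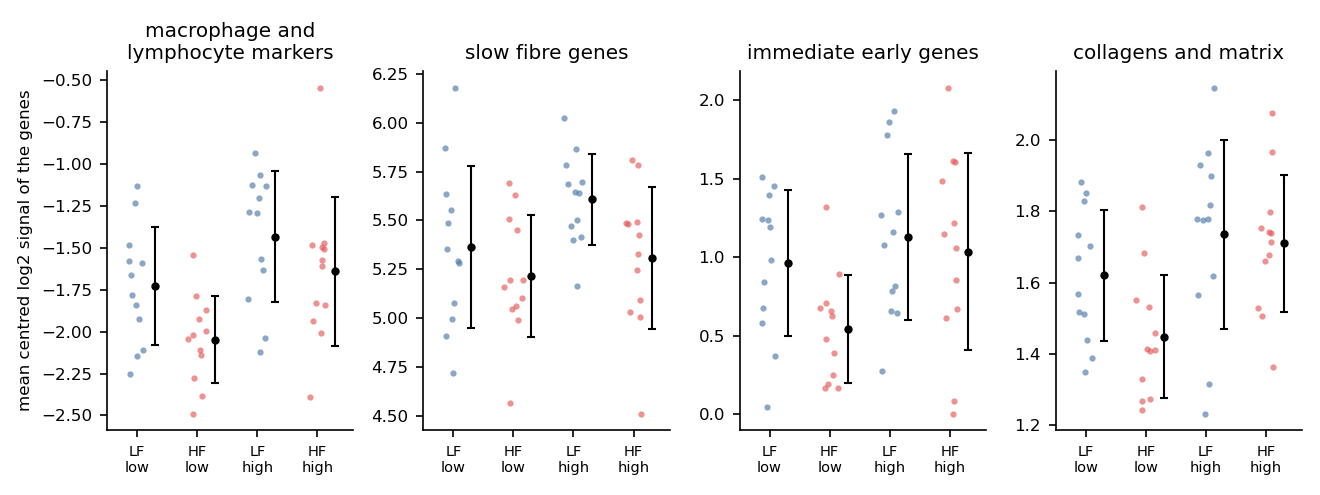
Mean centred log2 signal of the genes of 4 lists (y axis) in each of the 48 pigs, by diet and line (x axis), with points for pigs and black marks for the mean ± SD of 12 pigs. HF pigs have the lower median in the lists of macrophage and lymphocyte markers (−1.90 against −1.58), slow fibre genes (5.22 against 5.50), immediate early genes (0.67 against 1.12) and collagens and matrix (1.54 against 1.72), with wide overlap.

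Nerve and Schwann cell markers had 13 of 34 probes higher and 2 lower at an unadjusted p under 0.05, none called, and a median of 0.25 over probes. That median was 0.07 with normexp background correction. By the mean over probes 9 of 14 genes were above 0, with a median of 0.05 over genes, and the mean level of the list per pig differed by −0.02. The higher ones were mainly of the myelin gene MBP (9 of its 11 probes, mean difference 0.32), which was named after its values were seen. The lower ones were of NEFM and the neurofilament heavy chain NEFH, with differences of −1.35 and −1.47 at single probes. The means over the probes of a gene ranged from −1.35 to 0.92 in this list. The list median was 0.03 in pigs scanned on the first day and 0.43 in those scanned on the second. Adipocyte markers had a median of 0.01, with 1 of 56 probes at an unadjusted p under 0.05, and endothelial and smooth muscle markers likewise 0.01, with 1 of 59. The adipocyte median was −0.12 in the low and 0.11 in the high RFI line, and −0.09 and 0.09 on the first and the second scan day. For endothelial and smooth muscle markers it was −0.03 in the low and 0.05 in the high RFI line. Of the 8 probes for erythrocyte markers 1 was lower at that p, and their median was −0.05.

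Collagens and matrix genes had 24 of 121 probes lower and 1 higher at an unadjusted p under 0.05, and a median of −0.07. Tenascin C (TNC) differed by −0.71 (adjusted p = 0.0819 in limma) and COL5A1 by −0.24 (adjusted p = 0.112 in limma). Heat shock and chaperone genes had 26 of 101 probes lower and none higher, with a median of −0.05, which was −0.11 in the low and 0.02 in the high RFI line. HSPH1 of that list differed by −0.48 (adjusted p = 0.194 in limma), made of −0.97 in the low and 0.02 in the high RFI line.

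Averaged over lines, genes of fat oxidation showed little difference between a diet rich and a diet poor in fat. The list of peroxisome proliferator-activated receptor (PPAR) targets, which respond to fatty acids, had no called probe among 81, none higher and 9 lower at an unadjusted p under 0.05, and a median of 0.02. PDK4, which spares glucose by blocking pyruvate oxidation, differed by 0.74 ± 0.41 (SE, n = 24 per diet) with an adjusted p of 0.446 in limma, and all of its 11 probes were above 0. CPT1B of mitochondrial fatty acid import differed by 0.08, UCP3 by 0.13, ANGPTL4 by −0.28 and the glucose transporter gene SLC2A4 by −0.08, with adjusted p between 0.538 and 0.884 in limma. Beta-oxidation had a median of 0.03 over 98 probes, the citrate cycle 0.03 over 77, complex I of the respiratory chain 0.02 over 73 and complexes II to V 0.02 over 162. In the low and the high RFI line the medians were −0.09 and 0.07 for PPAR targets and −0.03 and 0.09 for beta-oxidation. They were −0.02 and 0.10 for the citrate cycle, 0.001 and 0.05 for complex I and −0.02 and 0.06 for complexes II to V. These list medians were not tested between lines.

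Lipogenic genes had a median of −0.07 over 72 probes, with 6 lower and none higher at an unadjusted p under 0.05. SCD, the stearoyl-CoA desaturase, differed by −0.41 and FASN, the fatty acid synthase, by −0.31, with adjusted p of 0.572 and 0.56 in limma. In both the low RFI line was lower (−1.14 and −0.70) and the high RFI line higher (0.31 and 0.09) on the HF diet. For SCD the contrast between lines had an unadjusted p of 0.0141 in limma. PPARG differed by 0.15 at its best probe, LEP by 0.34, ADIPOQ by −0.11, PLIN1 by 0.07 and FABP4 by 0.16, with adjusted p from 0.357 to 0.954 in limma. ACSS2, which activates acetate, a product of fiber fermentation, differed by −0.06 with an adjusted p of 0.629, and the list for short-chain fatty acid and ketone use had a median of 0.01 over 45 probes.

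Clock genes had 3 of 26 probes higher and 4 lower at an unadjusted p under 0.05. The repressor NR1D1 differed by 0.48 (adjusted p = 0.108 in limma) and NFIL3 by −0.66 (adjusted p = 0.133 in limma). In NR1D1 and NFIL3 the difference was the larger one in the low RFI line, at 0.83 against 0.12 and at −1.16 against −0.16. PTPN1, a phosphatase of the insulin receptor, differed by −0.22 (adjusted p = 0.0626 in limma), and the list of insulin and mTOR signalling had a median of −0.01 (−0.002 after quantile normalization). The medians of the other lists, for glucocorticoid targets (−0.11), atrophy and autophagy (0.02), interferon-stimulated genes (−0.08), proteasome subunits (−0.01) and amino acid metabolism (−0.01), rested on no called probe. For interferon-stimulated genes the median was 0.11 in the low and −0.18 in the high RFI line. The sign also differed between the low and the high RFI line for atrophy and autophagy (0.04 and −0.01) and amino acid metabolism (−0.06 and 0.02).

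**Figure D5:**
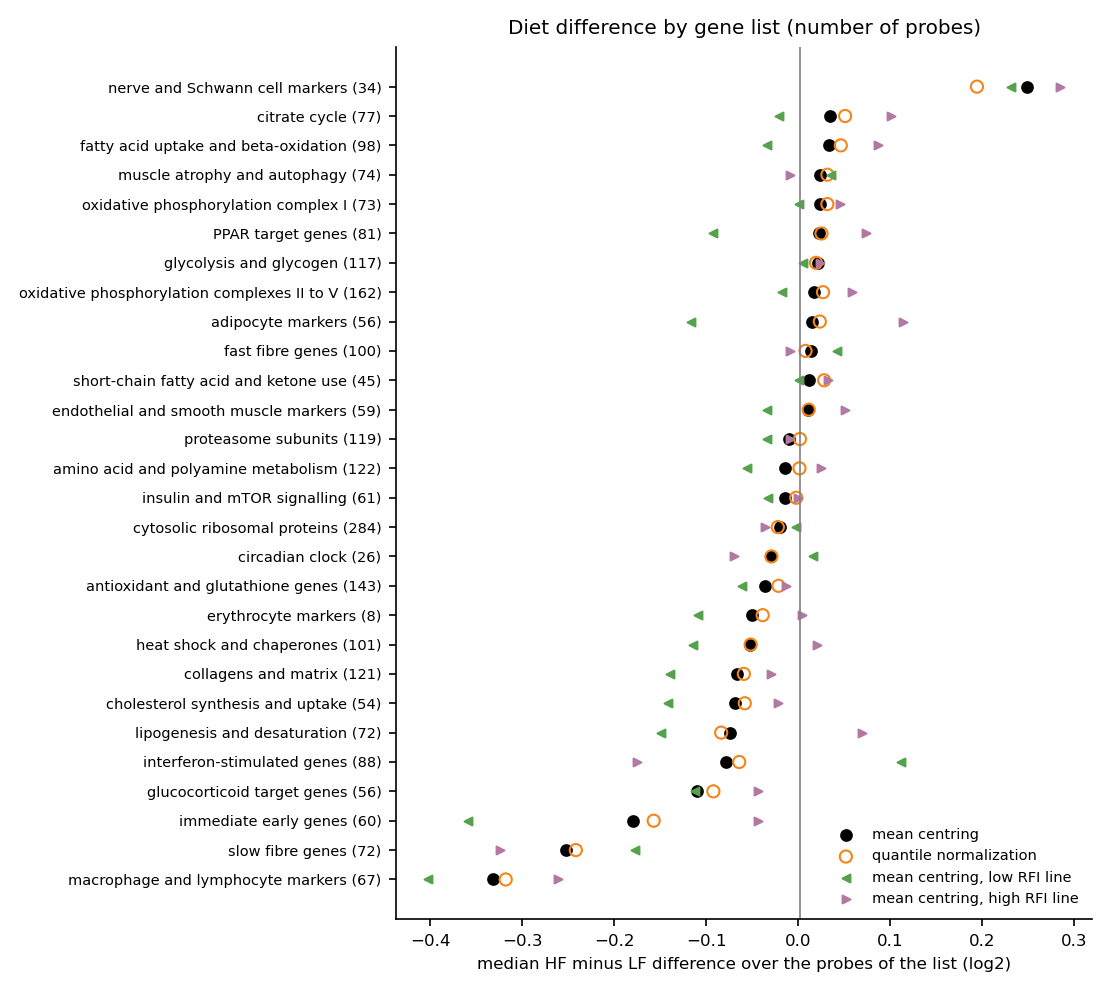
Median HF minus LF difference (log2, x axis) over the probes of each of the 28 lists (y axis, with the number of probes), with mean centring, after quantile normalization and in each line. Macrophage and lymphocyte markers (−0.33), slow fibre genes (−0.25) and immediate early genes (−0.18) lie lowest, and nerve and Schwann cell markers (0.25) highest, although the median over the genes of that last list was 0.05.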

How the data were processed

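The authors hybridised total RNA of each pig, labelled with Cy3, and deposited spot intensities from Agilent Feature Extraction 10.7.3.1, which subtracts the background, together with a log2 table. Per the labels, R 2.10.0 was used. That log2 table covers 34472 probes and was found to be the log2 median signal of the spots, centred on the array medians. The number of arrays limits the precision.

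Here control and outlier spots were left out, spots of a probe were averaged, and processed signals on a log2 scale were centred per array on the mean of the tested probes, like the mean centring of the methods. Groups were compared with limma 3.58.1 (R 4.3.3) with a mean for each of the 4 groups, p-values being adjusted by Benjamini-Hochberg with a threshold of 0.05. The fit was tested on simulated data. Permutation tests used 100000 permutations (Python 3.11.15, scipy 1.17.1). Of 60305 probes, 27363 (45.4%) had a gene symbol from the array files and the reference tables. Genes named were the 15 with the largest called difference in each direction and the same sign in both lines (smallest p per gene), genes with 2 or more called probes, 3 members of each list with the smallest p, and a fixed set, of which some are not reported here. The genes and lists were chosen with earlier results of these data known. Alternatives changed the scaling, background correction, filter, outlier spots, slide, scan day, array weights, model and arrays used.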

Additional observations from a re-analysis of the deposited data

How the results depend on the processing

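For the diets averaged over lines, the count of called probes was 177 in the setting reported. It was 73 with normexp background correction, 0 with no filter on dim probes, 359 with slide as a fixed effect, 355 with array weights and 333 without pigs 6 and 10 of HF_RFIpl. With no filter but centred over the usual probes, which was chosen after seeing the data, it was 70, and without the filter 60305 probes were tested instead of 42125. With 0 called by limma, 5122 probes had an unadjusted p under 0.05. In the other settings it stayed between 158 and 259. Leaving out single arrays, also chosen after seeing the data, gave 69 to 400. Within the low RFI line the count was 84, and it was 205 with centring on the 75th percentile, 137 with probes well above background on all 48 arrays, 14 with no filter, 165 with slide, 148 with scan day, 143 with the deposited table, 190 with array weights and 173 without the same 2 pigs, and 10 to 141 with single arrays left out. In the high RFI line it was 0 to 1 and for the contrast between lines always 0. The causes of these shifts were not tested. Among the named genes 4 changed sign when their probes were averaged, none of them called: ATP2A1 to 0.0167, PPARG to -0.000266, RPS16 to 0.0266 and SLC2A4 to 0.00554. A further 122 of the values of named genes in these settings lost the threshold and 17 gained it, all in the same direction. No paired analysis was possible because every title carries the same replicate number.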

Other observations

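Over the 48 pigs, with the mean of each group removed, NR4A3 was set beside 29 other named genes, a check chosen after seeing the data. Its level went with that of PPP1R3C, with a Pearson r of 0.57 (permutation p = 0.00019, adjusted p = 0.00551) and a Spearman rho of 0.58 (permutation p = 0.00013, adjusted p = 0.00377), and r was 0.57 without the 2 pigs farthest from the median. It was 0.51 and 0.68 in pigs of the first and the second scan day, and between 0.49 and 0.83 within slides. FOSL1 went with NR4A3 less closely, with r of 0.46 (permutation p = 0.00111, adjusted p = 0.0161), rho of 0.47 (permutation p = 0.00123, adjusted p = 0.0178) and r of 0.48 without the 2 pigs, and it had the same sign on 5 of 6 slides. CITED2 went against NR4A3, with r of −0.43 (permutation p = 0.00212, adjusted p = 0.0205), rho of −0.44 (permutation p = 0.00297, adjusted p = 0.0268) and r of −0.49 without the 2 pigs, and it had this sign on all 6 slides. ABCC5 had r of −0.43 (permutation p = 0.00523, adjusted p = 0.0379), rho of −0.43 (permutation p = 0.0037, adjusted p = 0.0268) and r of −0.44 without the 2 pigs, with the same sign on 5 of 6 slides.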
